A study of Mus musculus with 18 samples.

Results

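Type I interferon antiviral genes in mouse colon epithelium are described here. The 10 genes were chosen by name, as well-known targets of type I interferon, with no threshold on their values, though earlier results of these data were known: Ifit1, Ifit2, Ifit3, Oas1a, Oas2, Oasl2, Rsad2, Usp18, Ifih1 and Ifi44. All probes carrying 1 of these symbols were taken, which gave 15 of the 45281 probes of the array and 10 of its 30869 gene symbols. A probe entered the tests when it was detected on at least 4 of the 18 arrays, with a detection p-value (the share of negative control probes that were brighter) under 0.05. This left 12 probes of 8 genes, while Ifit1 and Ifi44 were not tested.

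The samples were colon epithelial cells sorted by flow cytometry (EpCAM+ and CD45-, CD3- and F4/80- by the study's methods) and measured on Illumina MouseWG-6 BeadChips. Naive_WT were untreated wild-type mice and Naive_KO untreated mice lacking Mbd2, a protein that binds methylated CpG sites. DSS_WT and DSS_KO were the same genotypes given 2% dextran sulfate sodium in their drinking water, a polymer that injures the gut lining, for 6 days according to the methods. Arrays 4R and 5R, whose R the labels do not explain, were taken as repeats and averaged with arrays 4 (DSS_WT) and 5 (DSS_KO), after which every group held 4 samples. The Mbd2 deletion was present in all tissues, on a C57BL/6 background, the mice were adult and matched for age and sex, and a replicate could pool several mice, so the samples are not all single animals. The labels do not say how mice were shared out among replicates, and p-values measure the spread between these samples. By the study's methods array replicates came from separate experiments, and the fit held no term for experiment.

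Type I interferons are secreted proteins made after viral or microbial nucleic acid is sensed inside a cell. They bind the receptor made of Ifnar1 and Ifnar2, and the kinases Jak1 and Tyk2 then activate a transcription factor complex, with Stat2 and Irf9 among its subunits, that binds interferon-stimulated response elements in DNA. The genes turned on in this way include the antiviral effectors described here, and in gut epithelium many of them also answer type III interferon.

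Between 41.6% and 45.5% of probes were detected per array. The single Mbd2 probe was detected on 0 of 18 arrays in either genotype (lowest detection p-value 0.151), so the deletion could not be checked from these data. All 12 epithelial markers examined, Epcam and Cdh1 among them, were detected on all 18 arrays. Ptprc, which encodes CD45, was detected on 3 arrays at most, yet 7 of 12 myeloid markers passed the detection filter, as did 7 of 7 fibroblast and smooth muscle markers. These are bulk samples, in which more cells of a type and more RNA per cell cannot be told apart.

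Regulatory sequence was looked up for the members in RefSeq promoter windows (build GRCm38.p6, 250 bases before to 50 after each start site). The table held windows for 8 of the 10 genes, with 2 for Ifit2, and none for Oas2 or Usp18. The core of the response element was searched as GAAA, any 2 bases and GAAA, and the core of the gamma-activated site as TTC, any 3 bases and GAA, on both strands. Ifit1 held 2 response element cores upstream of the start, beginning at -104 and -85. Ifit3 also held 2, at -156 and -122, and those of Oas1a, at -20 and -14, shared 4 bases. Rsad2 held 1, at -120, and Ifih1 held 1 that lay after the start, at 32. Neither window of Ifit2 held one, nor did those of Oasl2 and Ifi44. Of all 32851 windows of this length, 3.44% held the core. The gamma-activated core was found in the first Ifit2 window at -241 and in the Oas1a window at -98, against 8.30% of all windows.

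Stretches upstream of the start are shown for the 4 genes with a match there, of which Ifit1 could not be tested for expression, and for Oasl2 as a tested gene without one. Of the 2 Ifit3 matches the stretch holds the nearer. They are read 5′ to 3′ on the strand of the gene, with matches to the response element core in capitals. The Ifit1 stretch is chr19:34640759-34640838 (plus strand), that of Ifit3 is chr19:34583388-34583417 (plus), that of Oas1a is chr5:120907526-120907605 (minus), that of Rsad2 is chr12:26456513-26456592 (minus), and that of Oasl2 is chr5:114896804-114896883 (plus).
Ifit1: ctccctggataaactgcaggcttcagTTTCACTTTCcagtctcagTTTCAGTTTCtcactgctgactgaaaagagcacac
Ifit3: ctggttgattttaagtctgTTTCAGTTTCt
Oas1a: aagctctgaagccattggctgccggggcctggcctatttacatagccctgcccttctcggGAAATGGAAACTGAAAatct
Rsad2: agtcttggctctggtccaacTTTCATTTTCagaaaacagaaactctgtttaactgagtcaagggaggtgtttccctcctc
Oasl2: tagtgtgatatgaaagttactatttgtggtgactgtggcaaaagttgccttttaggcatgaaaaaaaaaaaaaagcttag
In Ifit1, Ifit3 and Rsad2 the match runs on the opposite strand, so it reads as TTTC, 2 bases and TTTC. CpG sites, to which Mbd2 binds when they are methylated, numbered from 1 in the Ifit3 window to 14 in the Ifih1 window. The Rsad2 window held 6, and the median of all windows was 7. A match describes the letters and does not show that a factor binds there.

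**Figure D1:**
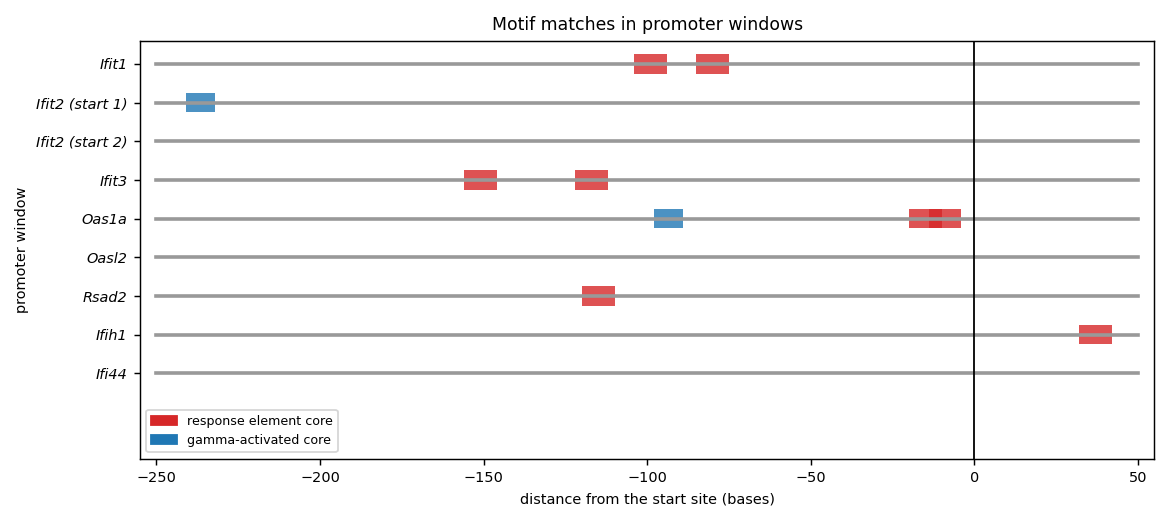
Matches to the response element core (red) and the gamma-activated core (blue) in the promoter windows of 8 antiviral genes, plotted by distance from the start site in bases (line at 0). Ifit1, Ifit3, Oas1a and Rsad2 hold response element cores before the start, while Oasl2, Ifi44 and both Ifit2 windows hold none.

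By group means, Ifit2, Ifit3, Oasl2 and Usp18 were lowest in untreated wild-type epithelium, intermediate after either Mbd2 loss or DSS alone, and highest in DSS_KO. Oas1a and Oas2 were detected on no Naive_WT array and entered the tests through the other groups, so no low level is read for them there. Rsad2 ran the other way, with its highest level in Naive_WT, and Ifih1 was nearly level. Levels are log2 normalized intensities, differences are on the same log2 scale, and calls needed an adjusted p (limma, Benjamini-Hochberg over all 21938 tested probes) under 0.01 together with a log2 fold change of at least 1 in size. A value for a gene is that of its brightest tested probe.

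Without DSS, Mbd2KO against WT gave 1 call among the 8 tested genes, Rsad2, which was lower in Naive_KO, where 0.656% of all tested probes were called. At an adjusted p under 0.05 with no fold limit, Ifit2 and Oasl2 were higher (2 of 8, against 2.43% of all tested probes) and Rsad2 was lower (2.77% of all). Oas2 also passed this limit and is left out of the count, since it was below detection in Naive_WT. With DSS, 0 of 8 genes were called between DSS_KO and DSS_WT by limma, where the background was 0.862%, and 4 of 8 had an unadjusted p under 0.05 (22.2% of all tested probes). With 4R and 5R counted as separate samples, Ifit2 and Usp18 were called in this comparison (2 of 8, where 1.91% of all tested probes were called). At an adjusted p under 0.05, Ifit2 and Usp18 were higher (2 of 8, against 2.46%).

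Sample ranges of the genotypes lay apart without DSS for 3 of 8 genes that were higher in Naive_KO (Ifit2, Ifit3 and Oasl2, against 6.71% of all tested probes, with Oas2 not counted) and for Rsad2, which was lower (5.55%). With DSS they lay apart for Ifit2 and Usp18, both higher in DSS_KO (2 of 8, against 6.43%), and for Rsad2, lower (8.29%).

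DSS against no treatment gave 1 call in each genotype. In WT it was Oasl2 (1.74% of all tested probes called), and at an adjusted p under 0.05 Ifit2, Ifit3 and Oasl2 were higher (3 of 8, against 5.71%). In Mbd2KO it was Ifit2 (1.72% called), and at an adjusted p under 0.05 Ifit2 and Usp18 were higher (2 of 8, against 4.9%). DSS_WT lay wholly above Naive_WT for Ifit2, Ifit3, Oasl2 and Usp18 (4 of 8, against 8.87% of all tested probes, with Oas1a and Oas2 not counted), and DSS_KO wholly above Naive_KO for Ifit2 (7.63%). The 8 genes had a median log2 fold change of 0.85 for genotype without DSS and 0.32 with DSS. For DSS itself the median was 0.79 in WT and 0.42 in Mbd2KO. With Oas1a and Oas2 at their bounds against Naive_WT, where neither was detected, or at 0 where the bound was under 1-fold, the medians against that group were 0.72 for genotype and 0.59 for DSS. Medians over all tested genes lay between -0.02 and 0.01. The 4 comparisons share groups, so these values are not independent of each other.

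**Figure D2:**
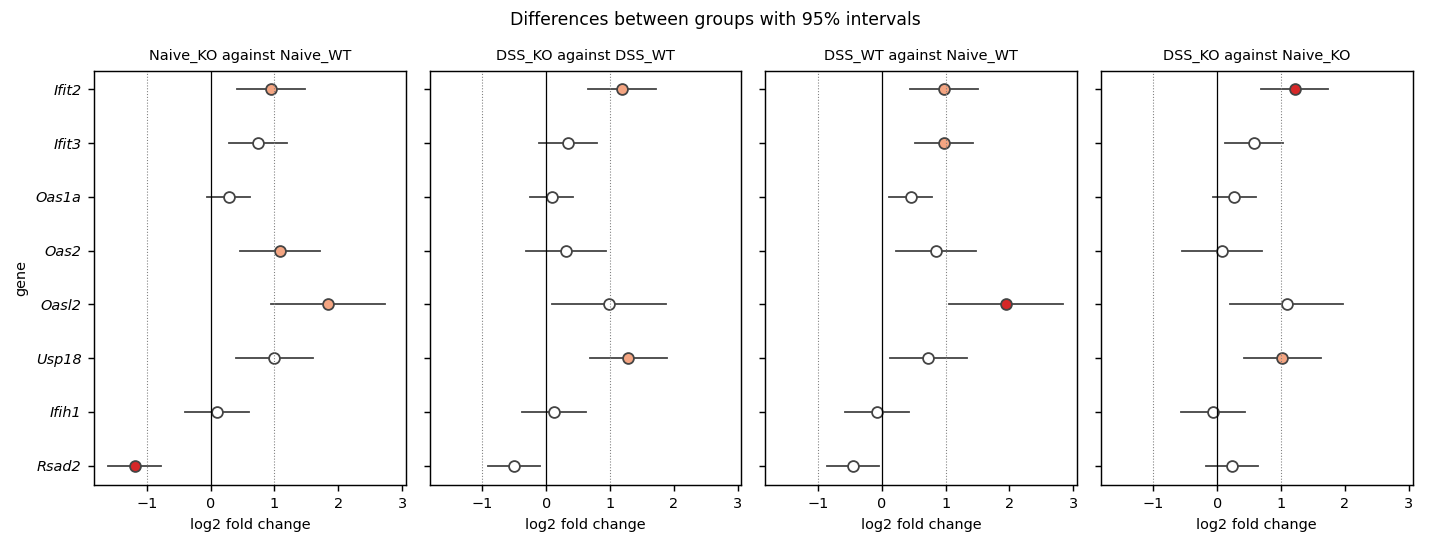
Log2 fold change of each tested antiviral gene (rows) in the 4 comparisons, with 95% intervals from limma. Red points were called, orange points had an adjusted p under 0.05 without meeting both limits, white points neither. Differences of Oas1a and Oas2 from Naive_WT are as measured, although neither was detected there. Rsad2 lies left of 0 in both genotype comparisons, and the called points are Rsad2 without DSS, Oasl2 for DSS in WT and Ifit2 with DSS in Mbd2KO.

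The Ifit genes encode proteins with tetratricopeptide repeats that bind foreign RNA or restrain translation. Ifit2 was 5.47, 4.94, 5.00 and 5.54 in the Naive_WT samples and 6.64, 5.56, 6.35 and 6.19 in Naive_KO. It was 6.18, 5.75, 6.63 and 6.28 in DSS_WT and 7.48, 7.02, 7.98 and 7.10 in DSS_KO. At this brightest probe all DSS_KO samples lay above all others and all Naive_WT samples lay below all others (highest 5.54, against a lowest of 5.56 in Naive_KO). Naive_KO and DSS_WT overlapped. Ifit2 rose with DSS in Mbd2KO by 1.21 ± 0.25 (SE, n = 4 a group, adjusted p = 0.0071, limma). This call was lost on leaving out any of DSS_KO replicates 5, 7 and 8 or Naive_KO replicates 14, 15 and 16 (adjusted p 0.0133 to 0.0269 without them), with the log2 fold change between 1.00 and 1.31. It was also lost without background correction (0.64), without the detection filter (adjusted p = 0.0185), in a fit to the 2 groups alone (0.0194) and with the Ifit2 probes averaged (0.0108). Between genotypes the log2 fold change was 1.19 ± 0.25 with DSS (adjusted p = 0.0121) and 0.95 ± 0.25 without it (adjusted p = 0.0378). The former passed the threshold without Naive_KO replicate 14 (adjusted p = 0.00812). The second Ifit2 probe gave 1.36 ± 0.33 with DSS (adjusted p = 0.0241) and 1.02 ± 0.33 without (adjusted p = 0.0792). It was detected on only 1 of 4 Naive_WT arrays, so its differences from that group start near background. At this probe the compared groups lay apart only for genotype with DSS.

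Ifit3, a partner of the other Ifit proteins, was 5.90, 5.73, 6.16 and 6.10 in Naive_WT and 7.06, 6.39, 6.94 and 6.47 in Naive_KO. It was 7.07, 6.62, 7.27 and 6.85 in DSS_WT and 6.94, 6.96, 7.94 and 7.32 in DSS_KO. Naive_WT lay below every other sample, and the 3 remaining groups overlapped. With DSS in WT Ifit3 was higher by 0.98 ± 0.22 (adjusted p = 0.00916), just under the fold limit, and it was called without DSS_WT replicate 2. Genotype gave 0.74 ± 0.22 without DSS (adjusted p = 0.0563) and 0.34 ± 0.22 with it (95% interval -0.12 to 0.79). The dim Ifit3 probe, detected on 5 arrays, shares 49 bases with a probe of its near-identical copy Ifit3b, so the 2 genes cannot be told apart there. Ifit1 had 1 probe, detected on 1 of 18 arrays at a detection p-value of 0.0427, and its level ran from 4.29 to 4.61 over the 16 samples.

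Oas genes encode synthetases of short oligoadenylates that switch on RNase L, and Oasl2 carries ubiquitin-like repeats besides. Oasl2 was 6.34, 6.20, 7.29 and 6.62 in Naive_WT and 8.95, 7.77, 9.76 and 7.34 in Naive_KO. It was 9.07, 7.80, 8.70 and 8.66 in DSS_WT and 9.79, 8.96, 9.85 and 9.56 in DSS_KO. Naive_WT stood below all other samples, and the Naive_KO samples spread over more than 2 log2 units and overlapped both DSS groups. Oasl2 rose with DSS in WT by 1.94 ± 0.42, a fold of 3.85 (adjusted p = 0.00841). This call was lost without any of DSS_WT replicates 1, 3 and 4, DSS_KO replicates 5, 7 and 8, and Naive_WT replicates 9, 10 and 12 (adjusted p 0.0105 to 0.0283), with the log2 fold change between 1.77 and 1.95. It was also lost without background correction (1.27), without the detection filter (adjusted p = 0.0252), with an intensity trend (0.0207) and with both probes averaged (1.26, adjusted p = 0.0267). Naive_KO exceeded Naive_WT by 1.84 ± 0.42 (adjusted p = 0.0202), and without Naive_KO replicate 16 this difference was 2.21 and called (adjusted p = 0.00449).

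Both Oasl2 probes are 50 bases long and read different stretches of the transcript. Their first 30 bases are shown here because the probes differed in brightness and in the size of some differences, the brighter first.
Oasl2 bright: ggccttgtgctctagaatggtaccaatcca
Oasl2 dim: cctaacagtcaattaagctgaaccctgctt
For genotype with DSS the bright probe gave 0.98 ± 0.42 (adjusted p = 0.180) and the dim probe 1.45 ± 0.33 (adjusted p = 0.0167). For DSS in WT the dim probe gave 0.58 ± 0.33 (adjusted p = 0.277), against 1.94 for the bright probe, and its own groups overlapped. For genotype without DSS it gave 1.54 ± 0.33 (adjusted p = 0.0145), against 1.84 for the bright probe. The dim probe was detected on only 1 of 4 Naive_WT arrays, so its differences from that group start near background.

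Oas2 was 4.40, 4.57, 4.70 and 4.37 in Naive_WT and 5.21, 5.66, 6.71 and 4.82 in Naive_KO. It was 5.15, 5.02, 5.64 and 5.63 in DSS_WT and 5.59, 5.25, 6.08 and 5.76 in DSS_KO. In Naive_WT it was detected on no array, so its level there is a bound. Against the lowest detected signal of those arrays, Oas2 was at least 1.63-fold higher in Naive_KO (detected in 3 of 4 samples) and at least 1.38-fold higher in DSS_WT. The adjusted p-values of 0.0436 and 0.0787 (limma) belong to the differences as measured, with Naive_WT below detection, and do not test these bounds. Such a bound is set by the dimmest probe that passed detection. With DSS, genotype gave 0.31 ± 0.30 (95% interval -0.32 to 0.94). Oas1a was dim, detected on 8 of 18 arrays, and ran from 4.38 to 5.50. None of its 4 comparisons had an adjusted p under 0.05, and DSS_KO exceeded DSS_WT by 0.09 ± 0.16 (95% interval -0.25 to 0.43).

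Usp18, a protease that removes Isg15 from proteins and restrains signalling at the interferon receptor, was 5.89, 6.31, 6.49 and 6.07 in Naive_WT and 7.52, 6.95, 7.86 and 6.42 in Naive_KO. It was 7.16, 6.52, 6.93 and 7.06 in DSS_WT and 8.31, 7.42, 8.61 and 8.44 in DSS_KO. The DSS_KO samples lay above all DSS_WT and Naive_WT samples, while Naive_KO overlapped every group. With DSS the genotypes differed by 1.28 ± 0.28, a fold of 2.43 (adjusted p = 0.0156). The difference was called without DSS_KO replicate 6 (1.54, adjusted p = 0.00603) and without Naive_KO replicate 16 (adjusted p = 0.00737). Without DSS it was 0.99 ± 0.28 (adjusted p = 0.0529), and DSS in Mbd2KO gave 1.01 ± 0.28 (adjusted p = 0.0335). A second Usp18 probe, dimmer and nearer the start of the transcript, gave 0.88 ± 0.25 for genotype with DSS (adjusted p = 0.0491). It was detected on no Naive_WT array and was at least 1.39-fold higher in Naive_KO. The adjusted p of 0.0581 (limma) belongs to its difference as measured and does not test that bound.

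Rsad2 encodes viperin, a radical SAM enzyme that makes a nucleotide analogue able to stop viral RNA synthesis. Its single probe begins at base 3514 of the transcript, and its first 30 bases are shown because the direction of this gene rests on it alone. No other probe of the array shared 20 or more bases with it.
Rsad2 probe: cagcagttagctccttaccgcagtaactca
Rsad2 was 9.22, 9.42, 9.01 and 8.67 in Naive_WT and 7.69, 7.72, 7.66 and 8.48 in Naive_KO. It was 8.52, 8.90, 8.54 and 8.55 in DSS_WT and 8.45, 8.03, 7.88 and 8.13 in DSS_KO. In both treatments the KO samples lay below all WT samples of the same treatment. Without DSS Rsad2 fell by 1.19 ± 0.19 on the log2 scale with Mbd2 loss, which is 2.28-fold lower (adjusted p = 0.00266). The call was lost without Naive_WT replicate 10 (adjusted p = 0.0139) and without Naive_KO replicates 13, 14 or 15 in turn (0.0111, 0.0101 and 0.0130), each time with a log2 fold change of -1.08 to -1.13. It was also lost in a fit to the 2 groups alone (-1.19, adjusted p = 0.0293) and, by size, without background correction (-0.92, adjusted p = 0.00437). With DSS the genotype difference was -0.51 ± 0.19 (adjusted p = 0.134). DSS itself gave -0.45 ± 0.19 in WT (adjusted p = 0.149) and 0.23 ± 0.19 in Mbd2KO (adjusted p = 0.498).

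Ifih1 encodes MDA5, a sensor of long double-stranded RNA. Its lowest and highest levels were 5.48 and 6.17 in Naive_WT, 5.22 and 6.30 in Naive_KO, 5.34 and 6.16 in DSS_WT and 5.29 and 6.01 in DSS_KO, and all groups overlapped. The 95% intervals of its differences were -0.40 to 0.61 for genotype without DSS, -0.39 to 0.62 for genotype with DSS, -0.58 to 0.42 for DSS in WT, and with DSS in Mbd2KO -0.57 to 0.44, and the sign changed with the setting in 4 of its 5 comparisons. Ifi44, whose function is little known, had 2 probes, and neither was detected on any array (lowest detection p-value 0.158).

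**Figure D3:**
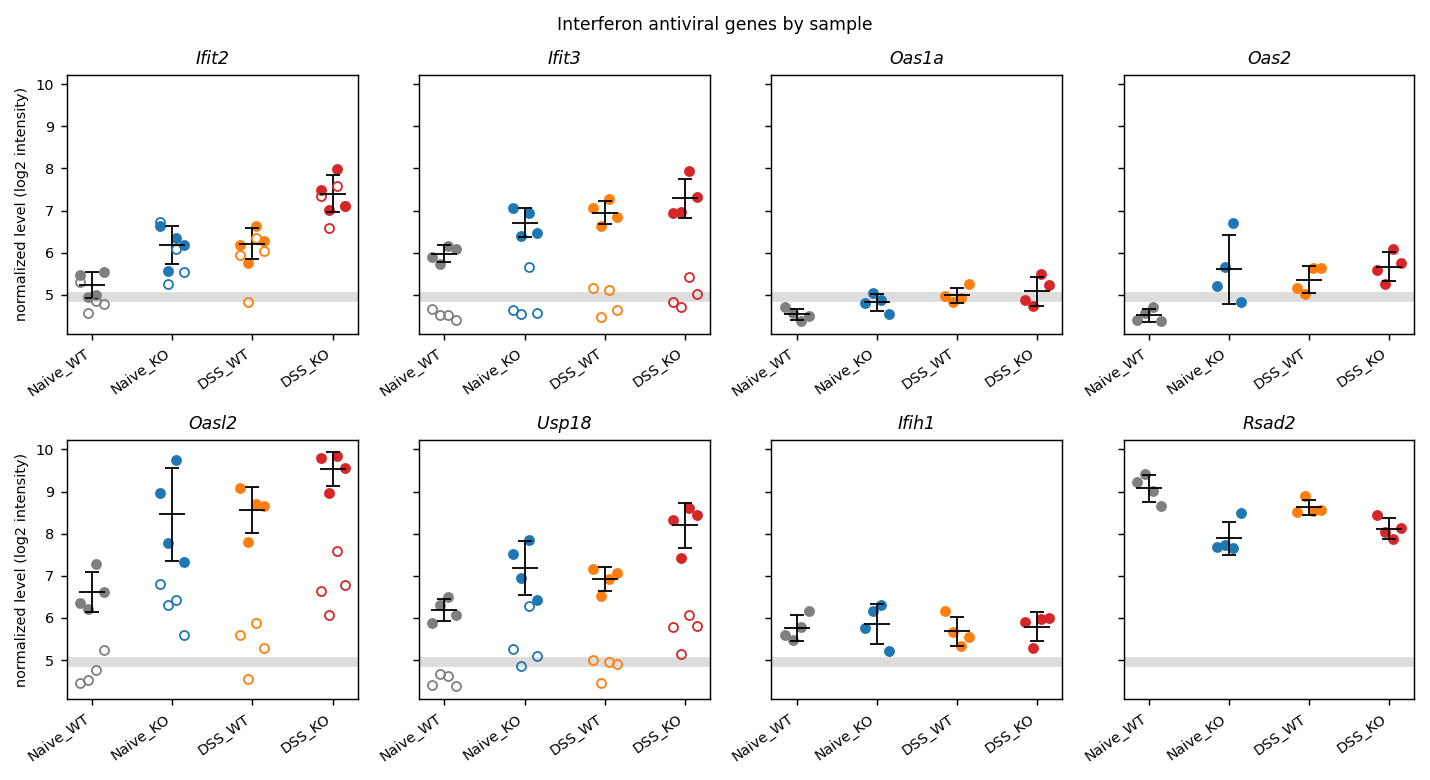
Level of each tested antiviral gene in every sample (log2 normalized intensity) by group. Filled points are the brightest probe, with the mean and SD of 4 samples as black bars, open points are a second probe, and the grey band spans the lowest detected signal over the 18 arrays. Oasl2 runs from 6.20 to 7.29 in Naive_WT and from 8.96 to 9.85 in DSS_KO, while Rsad2 is highest in Naive_WT.

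Whether Mbd2 loss acted differently with and without DSS was tested as an interaction. None of the 8 genes was called or had an adjusted p under 0.05, and neither did any of the 21938 tested probes. At an unadjusted p under 0.05 the count was 1 of 8, Rsad2, against 10.7% of all tested probes. Its interaction was 0.68 ± 0.28 (95% interval 0.10 to 1.27, adjusted p = 0.382). For Oasl2 it was -0.86 ± 0.60 (95% interval -2.12 to 0.40) and for Ifit2 0.24 ± 0.35 (95% interval -0.51 to 0.99), so sizeable differences in either direction remain possible.

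How the genes varied together was described by Pearson's r over the 16 samples, which share an array design and normalization, and over the deviations from group means. Oasl2 and Usp18 were most alike (r = 0.93, and 0.89 within groups), followed by Ifit3 and Oasl2 (0.91 and 0.67) and Ifit2 with Ifit3 (0.90 and 0.75). Rsad2 had a negative r with all 7 other tested genes, from -0.75 with Oas2 to -0.40 with Ifih1, and all 7 were negative within groups as well (-0.32 to -0.62). Within Naive_KO the same samples stood high or low for several genes: replicate 15 was highest for Oas2, Oasl2 and Usp18, and replicate 16 was lowest for Oas1a, Oas2, Oasl2, Usp18 and Ifih1 and highest for Rsad2.

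Of genes on no list, the 5 with profiles most like the mean of the 8 standardized genes were Mlkl (r = 0.94, and 0.83 within groups), Xdh (0.94 and 0.82), Spats2l (0.94 and 0.81), Gbp7, listed under its older symbol Gbp6 (0.93 and 0.79), and Apol10b (0.93 and 0.85). Mlkl, the executioner of necroptosis, had a mean of 8.13 in Naive_WT, 8.79 in Naive_KO, 8.83 in DSS_WT and 9.50 in DSS_KO. Xdh, which makes uric acid, rose with DSS in WT by 1.06, as did Spats2l by 1.32. These 5 genes were picked for their likeness over the same samples, so their changes are given as a description.

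**Figure D4:**
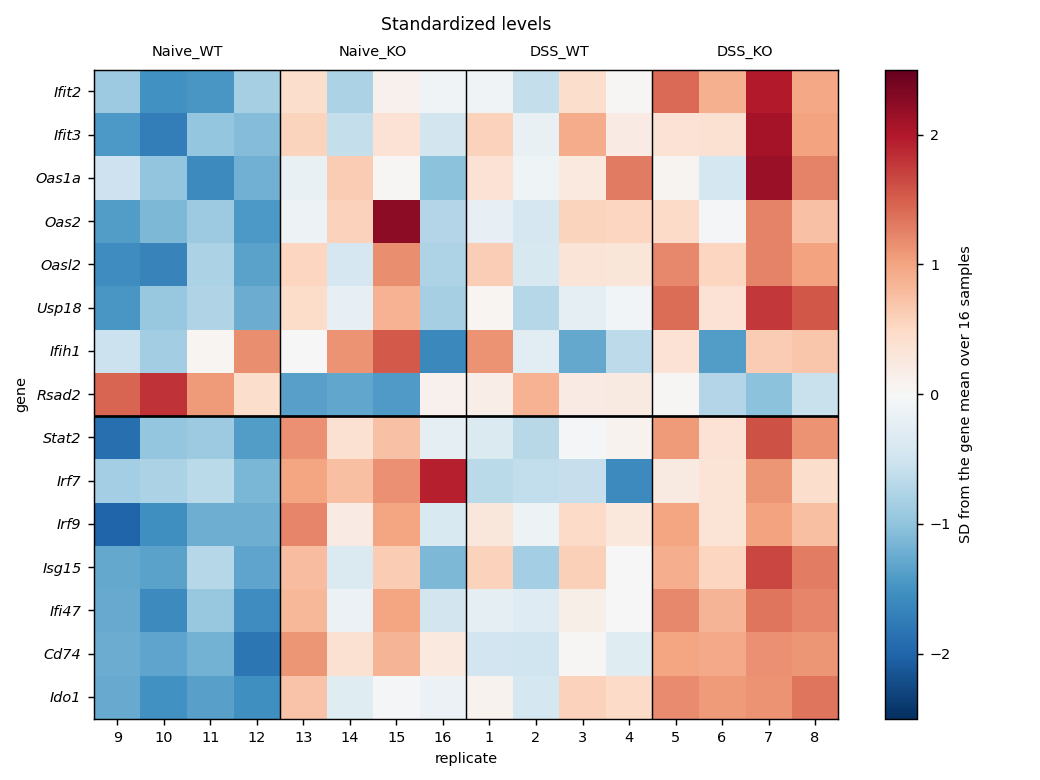
Levels of the 8 tested antiviral genes (above the line) and of 7 pathway genes (below it) in each of the 16 samples, in SD from the mean of each gene, red above and blue below. Rsad2 is red in Naive_WT and blue in 3 of 4 Naive_KO samples, opposite to Ifit2, Oasl2 and Usp18.

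The rest of the pathway was read from lists of its known genes, 1 probe per gene. Among interferon ligands 4 of 17 passed the detection filter, and none was called in any of the 4 comparisons by limma (at an unadjusted p under 0.05, 2 of 4 for genotype without DSS, against 22.8% of all tested probes, and 0 of 4 in each of the others). Ifnb1 was detected on no array. The Ifna genes are near-identical copies of each other, so their single values are uncertain. Of the receptors, Ifnar1 was detected on no array. Ifnar2 had means of 5.41 in Naive_WT, 5.67 in Naive_KO, 6.20 in DSS_WT and 5.92 in DSS_KO, and DSS in WT gave 0.79 ± 0.13 (adjusted p = 0.0016), under the fold limit.

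Among the 14 signal transducers and transcription factors, Irf7 and Irf9 were called for genotype without DSS (2 of 14, against 0.656% of all tested probes), both higher in Naive_KO. None was called for genotype with DSS (7 of 14 had an unadjusted p under 0.05, against 22.2%), and 1, Irf5, was called for DSS in each genotype (1.74% in WT and 1.72% in Mbd2KO). Irf7, which drives the later wave of interferon genes, was 7.79, 7.84, 7.91 and 7.61 in Naive_WT, 8.98, 8.84, 9.09 and 9.60 in Naive_KO, 7.91, 7.95, 7.97 and 7.31 in DSS_WT and 8.49, 8.57, 9.05 and 8.63 in DSS_KO. Its levels separated the genotypes in both treatments, by 1.34 ± 0.18 without DSS (adjusted p = 6.0e-04) and 0.90 ± 0.18 with it (adjusted p = 0.00923), while DSS in WT gave -0.0011 ± 0.18. Irf9 rose by 1.15 ± 0.18 with Mbd2 loss without DSS (adjusted p = 0.0017), and with DSS the difference was 0.32 ± 0.18 (adjusted p = 0.311). Stat2 was not called in any of the 4 comparisons. Stat2 gave 0.97 ± 0.18 without DSS (adjusted p = 0.00539) and 0.69 ± 0.18 with it (adjusted p = 0.0293). Irf5, an interferon regulatory factor of inflammatory cells, differed with DSS by 1.20 in WT and 1.11 in Mbd2KO (adjusted p = 5.3e-04 and 9.4e-04). It was near background without DSS, detected on 2 of 4 Naive_WT and 1 of 4 Naive_KO arrays, and so passed the detection filter through the DSS groups, and these values are given as a description.

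Other antiviral effectors, 32 tested of 42 listed, had 2 called genes for genotype with DSS (Ifi47 and Phf11d, against 0.862% of all tested probes) and 2 without (Ifi47 and Parp14, against 0.656%). For DSS they had 3 in WT (Ifi27l2a, Ifi47 and Parp14, against 1.74%) and 2 in Mbd2KO (Ifi27l2a and Ifitm3, against 1.72%), and all of these were higher. Their median log2 fold changes were 0.24, 0.45, 0.46 and 0.46 in that order. Ifi47, an interferon-inducible GTPase, rose by 2.03 ± 0.41 for genotype with DSS (adjusted p = 0.00942) and by 2.64 ± 0.41 without (adjusted p = 0.00187). Isg15, the ubiquitin-like protein that Usp18 removes, gave 0.88 ± 0.33 and 0.98 ± 0.33 in the same comparisons (adjusted p = 0.127 and 0.0950) and was not called. Of 11 tested nucleic acid sensors and adaptors, none was called in any of the 4 comparisons (limma), and at an unadjusted p under 0.05 there were 4 for genotype with DSS (22.2% of all tested probes), 4 without (22.8%), 6 for DSS in WT (26.3%) and 1 with DSS in Mbd2KO (24.5%).

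Genes typical of interferon-gamma had larger medians. The list holds Cd74, Ciita, Psmb8 and Cxcl9, which the study had reported as higher in Mbd2-deficient epithelium with DSS. Its genotype changes are therefore partly set by the choice of genes. Between genotypes 4 of 11 tested genes were called with DSS (0.862% of all tested probes). Without DSS (0.656%) Ido1, Igtp, Cd74 and Psmb8 were called, and Ciita, detected on no Naive_WT array, is left out as Oas2 was. With DSS treatment 7 were called in WT (1.74%) and 3 in Mbd2KO (1.72%), and all calls were higher. Medians were 1.92, 2.59, 1.97 and 1.38 in that order (the second was 2.50 with Ciita at its bound). Cd74, the MHC class II chaperone, rose by 3.75 without DSS and 2.52 with it between genotypes (adjusted p = 1.2e-05 and 8.1e-04). Ciita, the regulator of MHC class II genes, was detected on no Naive_WT array and was at least 5.67-fold higher in Naive_KO. The adjusted p of 0.00131 (limma) belongs to its difference as measured and does not test that bound. With DSS Ciita rose by 3.47 between genotypes (adjusted p = 7.6e-04). Psmb8, an immunoproteasome subunit, rose by 3.04 and 2.19 (adjusted p = 6.0e-04 and 0.00621). Ido1, which breaks down tryptophan, rose by 4.43 and 3.02 (adjusted p = 6.7e-04 and 0.00916), with only 1 of 4 Naive_WT arrays detecting it, so its changes from that group start near background. With DSS in WT, Ido1, the chemokine genes Cxcl9 and Cxcl10 and the GTPase gene Gbp2 rose by 4.77, 3.13, 1.50 and 2.90 (adjusted p = 3.6e-04, 0.00304, 7.3e-04 and 0.00251). The difference in size between these lists was not tested.

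**Figure D5:**
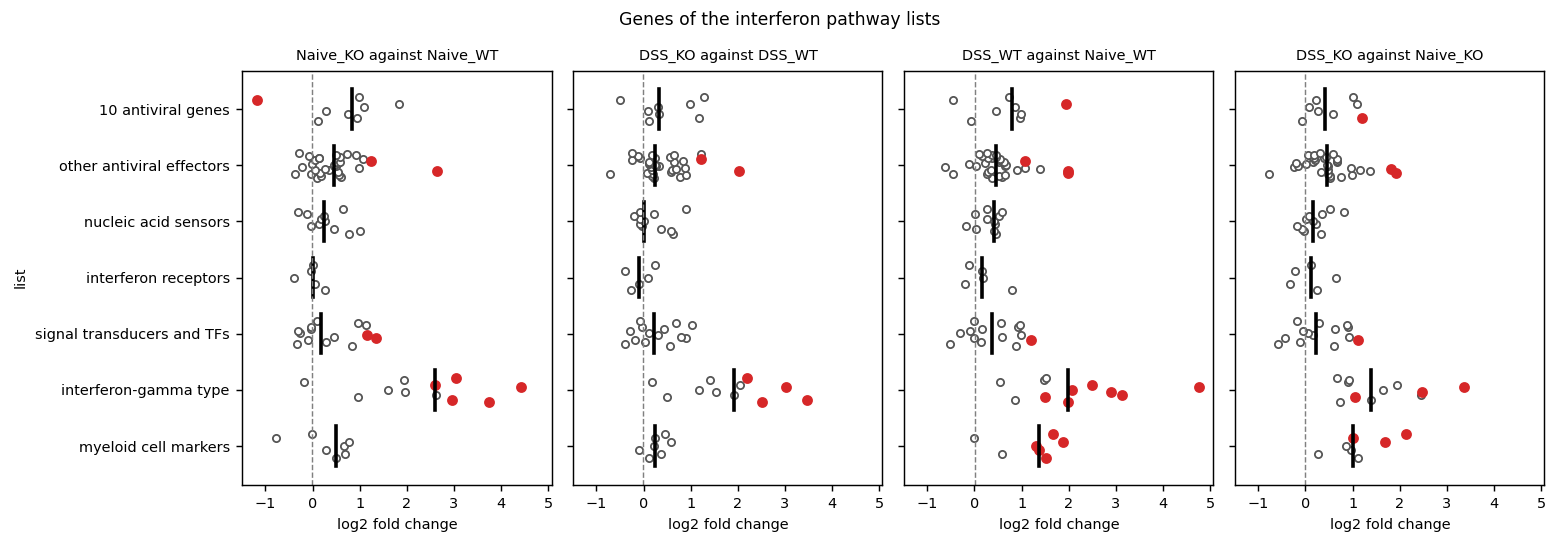
Log2 fold change of each tested gene in 7 lists (rows) for the 4 comparisons. Red points were called, white points were not, black bars are list medians and the dashed line is the median of all tested genes. The interferon-gamma list has medians from 1.38 to 2.59 and the antiviral genes described here, of which 8 were tested, from 0.32 to 0.85. The interferon-gamma list holds genes that the study had already reported as higher in Mbd2-deficient epithelium.

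Markers of other cells moved with some of these comparisons. The summed linear level of the 7 tested myeloid markers ran from 1273 to 1737 in Naive_WT, 1524 to 2809 in Naive_KO, 1928 to 3746 in DSS_WT and 3186 to 3780 in DSS_KO, and both ends of these ranges stood in the same order of groups as the means of Ifit2, Ifit3 and Oasl2. For DSS in WT 5 of 7 were called higher (1.74% of all tested probes) and in Mbd2KO 3 of 7 (1.72%). Between genotypes none was called with or without DSS (limma), and at an unadjusted p under 0.05 there were 0 of 7 with DSS and 4 of 7 without (22.2% and 22.8% of all tested probes). Ptprc, Itgam, Itgax, Cx3cr1 and Ly6c2 did not pass the detection filter. The 3 tested neutrophil markers summed to 68.7 to 88.3 in the naive groups and 122 to 2415 with DSS, but in Naive_WT S100a8 and S100a9 were detected on no array, nor was S100a9 in Naive_KO, so the naive sums are largely background. The 7 fibroblast and smooth muscle markers summed to 5415 to 7223 in DSS_KO against 9539 to 12216 in DSS_WT. Without DSS the genotypes overlapped, at 5565 to 7215 in Naive_KO and 6215 to 12048 in Naive_WT. Of the 7, Myh11 was called lower between genotypes with DSS (1 of 7, against 0.862% of all tested probes) and 0 without (0.656%). At an unadjusted p under 0.05 (limma) there were 5 of 7 with DSS (22.2%) and 2 of 7 without (22.8%). Endothelial markers, 5 tested, also summed lower in Mbd2KO, at 357 to 453 in Naive_KO against 486 to 714 in Naive_WT and 359 to 563 in DSS_KO against 608 to 899 in DSS_WT. In each treatment 4 of them were lower and 1 was higher. Between genotypes their sum had the direction of Rsad2. With DSS in WT it did not, since their median log2 fold change was 0.41 and Rsad2 gave -0.45. Between genotypes 1 of the 5, Tek, was called lower with DSS (0.862% of all tested probes) and 0 without (0.656%), where 3 of 5 had an unadjusted p under 0.05 (22.8%). The 3 tested B and plasma cell markers summed to 110.5 to 196 in Naive_WT, 121 to 417 in Naive_KO, 193 to 312 in DSS_WT and 202 to 520 in DSS_KO, with all groups overlapping but Naive_WT and DSS_KO. The 4 tested T and NK cell markers summed to 88.0 to 109.7 in the naive groups, where none was detected, and 111 to 139 with DSS. Epithelial markers summed to between 100979 and 125167 over all samples. What part these cells have in the antiviral gene levels was not tested.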

How the data were processed

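GenomeStudio exported the table with no normalization, per the file headers. The deposited values are mean bead intensity per probe, a detection p-value, and the other bead measures (standard error and number of beads), used only to describe the arrays; 36 other columns were not used. The submitters' processing notes name lumi and limma, without versions. The neqc function of limma 3.58.1 in R 4.3.3 subtracted background by 936 negative controls, equalized quantiles and took log2 (offset 16). Arrays 4R and 5R were averaged with 4 and 5 (SD of log2 differences 0.194 and 0.236, against 0.287 to 0.482 for other pairs of the same group). Group means of 16 samples were compared in a single limma fit, two-sided, with adjusted p under 0.01 and a log2 fold change of at least 1 as the study's methods have it, and was tested on simulated data.

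The 10 genes and all lists were chosen with earlier results of these data known. Named are the members with every probe, 8 listed pathway genes (1 of them is not reported here), up to 3 called genes per list and comparison with the largest change, and the 5 genes most like the members. List symbols were matched through Entrez identifiers to RefSeq (GRCm38.p6); 29586 of 45281 probes matched. Cmpk2, Reep6, Tmem191c and Tceal1 were named after their values were seen. Promoter sequences are from RefSeq and probe sequences from the deposited table, whose genome build is not stated. Alternatives were background correction, scaling, filters, repeat arrays, fits, call rules, probe averaging and leaving out each sample. The number of arrays limits the precision.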

Additional observations from a re-analysis of the deposited data

Results flagged for a closer look

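Among 32 sets of 4 samples (8 genes in 4 groups), 3 held a sample set apart from the other 3 by Dixon's test at its 95% critical value, where chance gives about 1 in 20. Rsad2 in Naive_KO was 8.48 in replicate 16, against 7.66 to 7.72 in the others, and leaving it out moved the genotype difference without DSS from -1.19 to -1.39. Rsad2 in DSS_WT was 8.90 in replicate 2, against 8.52 to 8.55 in the others. Ifih1 in DSS_KO was 5.29 in replicate 6, against 5.90 to 6.01 in the others.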

How the results depend on the processing

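No paired analysis was possible because the 4 groups share no replicate numbers. The slide as a block was not run because the table names no slides. Over 25 settings, 987 recomputed fold changes gave 923 with the same direction and side of the threshold, 29 that lost and 11 that gained a call, and 24 that changed sign. The interaction gave 0 called genes in each setting that fitted all 4 groups. Leaving out 1 of the 16 samples in turn gave 0 to 1 called genes for genotype with DSS (Usp18 without DSS_KO replicate 6 or Naive_KO replicate 16, Ifit2 without Naive_KO replicate 14), 0 to 2 for genotype without DSS, 0 to 2 for DSS in WT and 0 to 1 for DSS in Mbd2KO.

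Genotype with DSS gave 2 calls with 18 separate arrays, 1 with an intensity trend and robust prior, and 2 at an adjusted p under 0.05. Genotype without DSS gave 0 with no background correction, 0 in a fit to its 2 groups, and 4 at an adjusted p under 0.05 (Oas2 included). DSS in WT gave 0 with no background correction, 3 with median scaling, 0 with no filter, 0 with the trend, 3 at an adjusted p under 0.05 and 0 with probes averaged. DSS in Mbd2KO gave 0 with no background correction, 2 with median scaling, 0 with no filter, 0 in the fit to 2 groups, 2 at an adjusted p under 0.05 and 0 with probes averaged. With 18 separate arrays 1.91% of all tested probes were called for genotype with DSS, and the shares at an adjusted p under 0.05 are given above. For the other settings and for the left-out samples no share of all probes is given. Those counts therefore describe how calls moved and are not read as results about these genes. Why the counts moved was not tested.

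Median scaling moved the median of all tested probes by DSS to 0.24 in WT and 0.23 in Mbd2KO, and the share of called probes that were higher from 77.0% to 94.7% and from 62.3% to 87.4%. For genotype that share moved from 58.2% to 41.9% with DSS, and without background correction from 58.2% to 81.3% with DSS and from 61.1% to 72.2% without. Signs turned for Ifih1, Oas1a and Oas2, none of them past the threshold. For DSS in WT Ifih1 was 0.060 with median scaling and -0.24 to 0.061 over left-out samples, and for DSS in Mbd2KO 0.14 and -0.28 to 0.10. Its genotype difference without DSS was -0.040 to 0.32 over left-out samples, and its interaction -0.0054 with no background correction, -0.024 without 4R and 5R, and -0.20 to 0.18 over left-out samples. Oas1a for genotype with DSS was -6.9e-04 with 18 separate arrays and -0.049 to 0.21 over left-out samples. Oas2 for DSS in Mbd2KO was -0.0043 with no background correction and -0.19 to 0.44 over left-out samples. Signal over background limits Ifit1, Ifi44, Oas1a and Oas2.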

Other observations

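Cmpk2, a mitochondrial nucleotide kinase gene, lies 12664 bases from Rsad2 on chromosome 12 (26469117 to 26479837, GRCm38.p6) and was chosen for display after its values were seen. It did not share the pattern of its neighbour. Its means were 6.82 in Naive_WT, 6.99 in Naive_KO, 7.34 in DSS_WT and 7.51 in DSS_KO, with a log2 fold change of 0.17 for genotype without DSS (adjusted p = 0.525) where Rsad2 had -1.19. Pearson's r between them was -0.38 over 16 samples and -0.32 within groups.

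The gene with the profile most like that of Rsad2 was Reep6, which shapes the endoplasmic reticulum, where viperin also sits (r = 0.93 over 16 samples, 0.77 within groups). For genotype without DSS Reep6 had a log2 fold change of -0.66. The second most alike, Tmem191c (r = 0.93, and 0.81 within groups), had -0.83. Tceal1, the third most alike (r = 0.92, and 0.62 within groups), fell by 1.24 on the log2 scale in the same comparison. These genes were picked for likeness to Rsad2 over the same samples, so their changes are given as a description. Reep6, Tmem191c and Tceal1 are on none of the lists used here.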
